A study of Mus musculus with 21 samples.

Results

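The comparison was of glucocorticoid receptor binding in livers of mice given dexamethasone (DEX, a synthetic glucocorticoid) after 6 h of hypoxia and in livers of mice given DEX in normoxia. It rests on 6 of the 18 receptor libraries of the study, 3 per group, which the design text names as biological replicates. Receptor binding was measured by chromatin immunoprecipitation and sequencing (ChIP-seq) with a rabbit antibody against the receptor on frozen whole liver, and peaks were called in each library alone. Overlapping peaks of the 6 lists were merged into 4075 sites, of the 7398 that the peaks of all 18 libraries form, and 1116 of the 4075 (27.4%) held a peak in all 6 lists.

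All 6 animals were C57BL/6J mice fed without restriction, and both groups received 10 mg/kg DEX by intraperitoneal injection 2 h before sampling. The normoxia group was kept at 21% oxygen. The other group was placed at 7% oxygen, which the labels give as 6 h of hypoxia, and was returned to 7% oxygen after the injection. Whether the 2 h between injection and sampling are part of the 6 h is not clear from the labels, so 6 h is used below as the group's name. Because both groups carried DEX, the comparison is of hypoxia against normoxia in its presence and not of the effect of DEX. Whether the groups also differed in the hormone bound to the receptor was not tested. Whole tissue was used, so fewer cells of a type with a bound site and less receptor per cell at that site cannot be told apart. ChIP-seq does not measure expression, so for the labelled tissue only the positions of the receptor could be looked at. Of the sites in all 6 lists, 9 had a hepatocyte marker gene as the nearest gene and 2 an endothelial marker. For markers of Kupffer cells and leukocytes and of stellate cells and cholangiocytes the count was 0. Among sites found in any of the 6 libraries, the counts were 19, 8, 1 and 2, in the same order. The hepatocyte list held 8 genes and each other list 4, so these counts cannot check the tissue's cell types.

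The glucocorticoid receptor is a nuclear receptor that stays in the cytoplasm until it binds its hormone, then moves to the nucleus and attaches as a dimer to glucocorticoid response elements, paired short repeats in opposite orientation around a spacer. In hepatocytes it is known for driving gluconeogenesis, amino acid breakdown and lipid handling and for restraining inflammation, largely from enhancers away from promoters in chromatin that other liver factors hold open. Low oxygen stabilises hypoxia-inducible factors (HIF), which raise glycolysis and curb oxidative metabolism.

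A few promoters bound by the receptor in these livers show the kind of sequence involved. They are the 250 bases before the gene's start in RefSeq (GRCm38.p6, the assembly of mm10), written 5′ to 3′ along the gene. Capitals mark matches to ACANNNTGT, the paired core of the response element and its own reverse complement, or to the single element AGAACA or its reverse complement TGTTCT. The complete element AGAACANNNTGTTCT contains both of the others, so overlapping matches are marked as a single stretch. Mt1, Slc10a6 and Map3k6 were bound in all 6 libraries and hold a match, Car5a was bound in all 6 without a match, and Bhmt had a peak in all 3 normoxia libraries and 0 of 3 after 6 h.
Mt1 promoter, chr8:94178839-94179088, plus strand: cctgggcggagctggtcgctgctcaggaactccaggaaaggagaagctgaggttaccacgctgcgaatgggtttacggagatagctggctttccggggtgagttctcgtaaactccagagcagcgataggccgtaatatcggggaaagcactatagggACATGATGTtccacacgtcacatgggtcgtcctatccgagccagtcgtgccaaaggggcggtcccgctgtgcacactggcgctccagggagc
Slc10a6 promoter, chr5:103629404-103629653, minus strand: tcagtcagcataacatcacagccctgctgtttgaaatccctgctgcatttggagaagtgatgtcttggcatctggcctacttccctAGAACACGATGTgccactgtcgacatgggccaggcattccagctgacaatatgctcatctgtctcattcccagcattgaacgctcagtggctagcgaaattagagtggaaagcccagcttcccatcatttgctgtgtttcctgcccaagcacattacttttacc
Map3k6 promoter, chr4:133240568-133240817, plus strand: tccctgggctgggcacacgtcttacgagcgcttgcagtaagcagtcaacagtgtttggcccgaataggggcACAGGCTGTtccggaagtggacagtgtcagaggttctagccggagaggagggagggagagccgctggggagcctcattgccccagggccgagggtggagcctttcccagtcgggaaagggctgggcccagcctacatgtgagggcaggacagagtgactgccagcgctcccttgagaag
Car5a promoter, chr8:121944913-121945162, minus strand: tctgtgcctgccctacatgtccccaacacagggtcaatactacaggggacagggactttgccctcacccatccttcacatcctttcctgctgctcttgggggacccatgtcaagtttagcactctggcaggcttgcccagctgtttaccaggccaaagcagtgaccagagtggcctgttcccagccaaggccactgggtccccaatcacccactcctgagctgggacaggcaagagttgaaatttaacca
Bhmt promoter, chr13:93637759-93638008, minus strand: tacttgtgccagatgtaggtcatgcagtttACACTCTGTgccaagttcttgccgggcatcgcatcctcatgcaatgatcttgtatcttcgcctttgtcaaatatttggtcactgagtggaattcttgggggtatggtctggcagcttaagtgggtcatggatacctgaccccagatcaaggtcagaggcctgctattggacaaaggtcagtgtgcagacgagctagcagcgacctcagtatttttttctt

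The Mt1 promoter, in front of a metallothionein gene that glucocorticoids are known to induce, carries ACATGATGT from base 159 of the window. In Slc10a6, a transporter gene for sulfated steroids, AGAACA from base 87 runs into the core from base 90. In the kinase gene Map3k6 the core starts at base 72, and in Bhmt, a gene of methionine metabolism, at base 31. Promoter windows touched by a site called in all 6 lists numbered 56. Of these, 21.4% held the paired core and 26.8% the single element, against 5.84% and 16.1% of all 32851 promoter windows of the same length. Among the 17 windows touched by a site found in all 3 normoxia and 0 of 3 hypoxia libraries, 1 held the core and 1 the single element (5.88% each), and Bhmt is the 1 with the core. The complete element was found in 0 of the 56 windows and in 3 of all windows (0.00913%). A match describes the letters of the window and does not show where the receptor sat.

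Signal at these promoters is given as normalized tags, the peak caller's tags in a peak scaled to 10000000 tags per library. Mt1 held 234.4, 185.2 and 220.6 tags in normoxia and 236.9, 337.8 and 180.8 after 6 h (replicates 1, 2 and 3 of each group, in this order here and below), so the groups overlapped. Car5a, a mitochondrial carbonic anhydrase gene, held 196.5, 192.8 and 198.9 tags in normoxia and 125, 213.1 and 105.6 after 6 h. Its log2 change was -0.48 ± 0.16 (SE, n = 3 per group, limma adjusted p = 0.18) and did not pass. At Bhmt the normoxia libraries held 78.9, 54.4 and 48 tags. These lay below 86.6, the approximate minimum for a peak in hypoxia replicate 2. They lay above 43.7 and 47.6, the approximate minimum in replicates 1 and 3.

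Before any comparison, the libraries differed in ways that bear on detection. They held 5772670 to 13181686 tags, and the peak caller asked for 50 tags whatever the depth. Scaled by depth, 50 tags are 37.9, 47.7 and 38.7 normalized tags in the normoxia libraries and 43.7, 86.6 and 47.6 after 6 h. Replicate 2 of the 6 h group was the shallowest. These values are a guide and not an exact limit, since the lowest listed peaks after 6 h held 42, 83.2 and 46.6. The caller's 50 takes 1 tag per base, whereas normalized tags include repeated positions. A peak could therefore also need more normalized tags than these values. A peak also had to pass filters against the input and the local region. Normoxia replicate 1, the deepest, had 1016 sites found in it alone, against 13 to 150 in each of the other 5 libraries. A normalized tag count was also taken in each library's own peak windows, which were 178 to 196 bp wide.

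Fewer peaks were called after 6 h of hypoxia, and with the same normalized threshold in every library the difference fell within the spread between replicates. The normoxia libraries held 3659, 2235 and 2516 peaks and the 6 h libraries 2168, 1485 and 1498. Every 6 h library lay below every normoxia library, with means of 2803 ± 754 and 1717 ± 391 (SD, n = 3 per group). The means of the log2 numbers differed by -0.70, or 1.62-fold, with an exact permutation p of 0.1 (two-sided), the smallest that 3 against 3 libraries allow.

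At 86.6 normalized tags, the approximate minimum of the shallowest library, the normoxia libraries kept 1249, 1124 and 964 peaks and the 6 h libraries 962, 1484 and 763. The groups then overlapped, and replicate 2 of the 6 h group had the most peaks instead of the fewest (log2 difference -0.10, exact permutation p = 0.8). The share of all tags that lay in peaks was 3.69%, 2.85% and 2.85% in normoxia and 2.65%, 3.15% and 1.93% after 6 h. It differed by -0.555 percentage points (exact permutation p = 0.4, two-sided), and at the common threshold by 0.0441 points (exact p = 1). Peaks within 1 kb of either end of a protein-coding gene made up 11.3% ± 1.02 in normoxia and 10.5% ± 1.33 after 6 h (SD, n = 3 each, exact permutation p = 0.6).

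**Figure D1:**
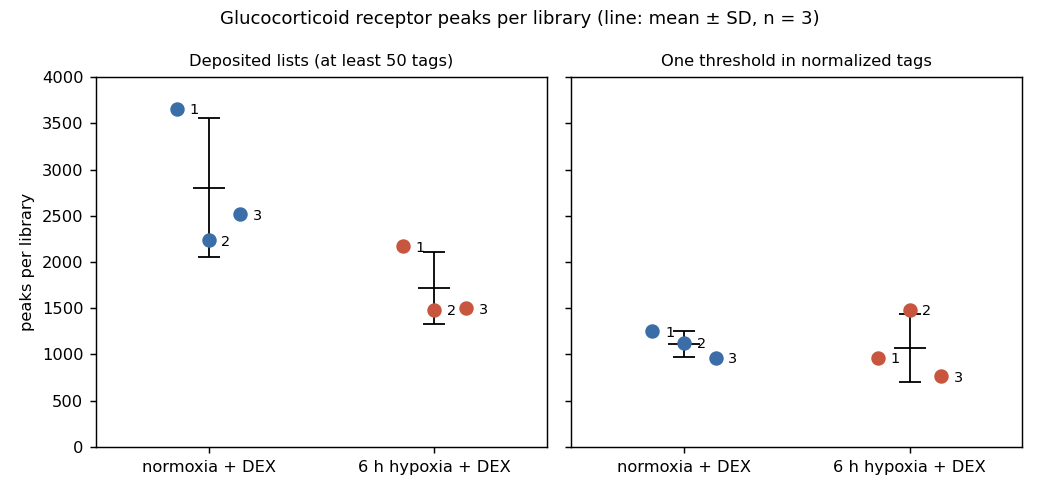
Peaks per library (vertical axis, number of peaks) in normoxia and after 6 h of hypoxia, both with DEX, as deposited on the left and at 86.6 normalized tags in every library on the right. Points are libraries with their replicate number and lines are mean ± SD. All 3 hypoxia libraries lie below the normoxia libraries on the left, while on the right hypoxia replicate 2 has the most peaks, 1484.

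Many positions were found in both groups, and many in normoxia alone. Besides the 1116 sites in all 6 lists, 329 sites were found in all 3 normoxia and 2 of the 3 hypoxia libraries and 34 in 2 of the normoxia and all 3 hypoxia libraries. In contrast, 1184 sites were found in 1 normoxia library alone and 347 in 2 normoxia and 0 hypoxia libraries. With the lists as deposited, pairs of libraries from different groups shared 0.378 to 0.662 of their joint sites (Jaccard index, 9 pairs), against 0.571 to 0.705 within normoxia and 0.606 to 0.649 within the 6 h group. With lists of equal length, the 1485 peaks of highest score in each, these shares were 0.609 to 0.699 between the groups, 0.627 to 0.725 within normoxia and 0.65 to 0.749 within the 6 h group. The pairs share libraries, and the ranges between and within groups overlapped.

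The 8 sites with the most tags held similar levels in both groups. The strongest lay 86.0 kb from Ptpn1, the gene of a phosphatase that acts on the insulin receptor, with 1778 ± 223 tags in normoxia and 1887 ± 364 in hypoxia. It was followed by a site in the transcription factor gene Klf13 (1683 ± 168 and 1795 ± 175) and a site 17.9 kb from Armc12 (1579 ± 219.98 and 1667 ± 329.98, SD, n = 3 each). A site in Midn, which encodes a factor in protein turnover, and a site 263 bp from Zfp36, whose protein destabilises inflammatory messenger RNAs, held 1203 and 1125 tags in normoxia and 1216 and 1180 after 6 h. The remaining sites of the 8 lay 116 kb from the deubiquitinase gene Usp24, in the kinase gene Map2k6 and in Cdkn1a, the p21 gene. Cdkn1a held 784.4, 921.1 and 1201.4 tags in normoxia and 1069.8, 994.3 and 963.9 after 6 h, so the hypoxia libraries lay within the normoxia range.

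Across all 1116 sites the receptor signal per library was alike in its middle. The median site held 132.6 ± 9.26 normalized tags in normoxia and 136 ± 40.5 after 6 h (SD, n = 3 each, exact permutation p = 0.9). The 6 h libraries were spread more widely, with medians of 123.2, 181.9 and 104.2 against 140.3, 135.05 and 122.3. Replicate 2 of the 6 h group, the shallowest, was thus the highest and replicate 3 the lowest. Each library was therefore centred on its own median over these sites before single sites were compared, and log2 changes below are relative to that median.

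At single sites, 16 of the 1116 (1.43%) changed after 6 h of hypoxia: 6 (0.538%) rose and 10 (0.896%) fell, at a Benjamini-Hochberg adjusted p under 0.05 over all 1116 sites (limma, two-sided, 3 libraries per group). Only sites listed in every library were fitted, and hypoxia replicate 2 listed none below 83.2 tags. A site weak in normoxia could thus enter only if it was higher in that library, and weak falls were left out. Mean normoxia tags ran from 47.3 to 232.4 at the rises and from 132.7 to 752.8 at the falls. Without centring 4 changed, 2 in each direction, at Gadd45b, Parva, Ppard and Mical3. An unadjusted p under 0.05 was reached by 149 sites, 86 higher and 63 lower. The log2 change was below 0.5 in size at 91.8% of sites, above 1 at 6 sites, and had a median of 0.02. After centring, the 3 hypoxia values lay entirely above the 3 normoxia values at 99 sites (8.87%) and entirely below them at 89 (7.97%), and all 16 called sites were among these. Before centring these counts were 48 (4.3%) and 26 (2.33%), and 15 of the 16 were among them. Of the 16, 11 lay inside a gene, against 52.3% of all 1116 sites. Within 1 kb of a gene end lay 0 of the 16, against 11.3% and 10.5% of peaks in the groups above. In a promoter window lay 0, against 53 of all 1116, so their sequences are not printed. With 16 sites these counts do not set the called sites apart in position.

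**Figure D2:**
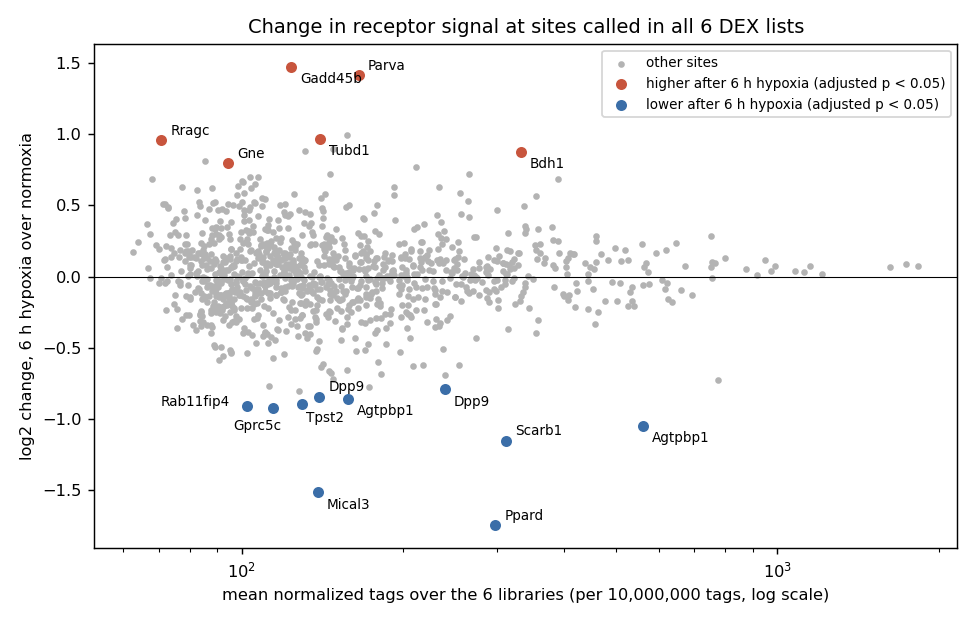
Each point is a site called in all 6 lists, with its mean normalized tags over the 6 libraries on a log axis and its log2 change after 6 h of hypoxia on the vertical axis. Coloured points passed the limma test, 6 higher and 10 lower, and grey points did not. The deepest fall, at Ppard (-1.75), and the largest rise, at Gadd45b (1.47), stand away from the band of other sites.

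The deepest fall was inside Ppard, which encodes PPAR delta, a nuclear receptor that senses fatty acids and turns on their oxidation (chr17:28272331-28272546). This site held 374.8, 546 and 446.7 tags in normoxia and 143.3, 178.4 and 95.2 after 6 h. The groups were far apart, and the highest hypoxia library reached less than the lowest normoxia library. The fall was 3.36-fold after centring (log2 change -1.75 ± 0.19, SE, n = 3 per group, limma adjusted p = 0.000673).

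Ppard had further sites. A site 10.9 kb away in the same gene held 138.1, 199.5 and 179.6 tags in normoxia and 129.4, 200.9 and 139.9 after 6 h, with overlapping groups (log2 change -0.15 ± 0.20). Another, at chr17:28279355-28279628, had a peak in all 3 normoxia lists, with 91.8, 108.8 and 85.2 tags, and in 0 of the 3 hypoxia lists. Its tags lay around 86.6, the approximate minimum of hypoxia replicate 2, and above 43.7 and 47.6, those of hypoxia replicates 1 and 3.

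Scarb1, the gene of SR-BI, through which hepatocytes take up cholesterol from high-density lipoprotein, lost signal at chr5:125297361-125297566. The site held 486.3, 426.7 and 360 tags in normoxia and 133.7, 285.8 and 178.9 after 6 h, with no overlap (log2 change -1.15 ± 0.19, SE, limma adjusted p = 0.00949). Other sites of the gene also had lower values. Sites in Scarb1 11.3 kb and 32.8 kb away had log2 changes of -0.21 ± 0.17 and -0.27 ± 0.16 and did not pass. A weaker site of the gene had a peak in all 3 normoxia lists (48.6, 64.9 and 65.8 tags) and in 0 of 3 after 6 h.

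Among genes of vesicle traffic and the cytoskeleton, Mical3, whose enzyme acts on actin and in vesicle docking, held 161.6, 269.2 and 179.6 tags in normoxia and 49.8, 109.1 and 61.8 after 6 h (chr6:121048280-121048483). Its groups did not overlap (log2 change -1.52 ± 0.22, SE, limma adjusted p = 0.0043). Another site in Mical3, 30.7 kb away, moved by -0.50 ± 0.17 and did not pass (limma adjusted p = 0.196). Rab11fip4, which encodes an effector of the recycling endosome protein Rab11, held 114.6, 164.2 and 119.2 tags in normoxia and 63.8, 95.3 and 56.1 after 6 h. It fell by 0.91 on the log2 scale (SE 0.18, limma adjusted p = 0.0169).

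At 2 genes a pair of sites fell together. Agtpbp1 encodes a carboxypeptidase that trims glutamates from tubulin. The stronger of its sites, 2761 bp outside the gene (chr13:59446666-59446880), held 713.9, 824.7 and 719.9 tags in normoxia and 406.4, 393.2 and 302.6 after 6 h, and the weaker, inside the gene and 21.0 kb away, held 213.2, 218.6 and 174.9 and then 102.3, 145.5 and 92.3. Neither site's groups overlapped. The log2 changes were -1.05 ± 0.19 and -0.86 ± 0.15 (SE, limma adjusted p = 0.0117 for each).

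Dpp9 encodes a cytosolic peptidase known for holding an inflammasome in check. Its pair of sites lie 2.32 kb apart, at chr17:56208815-56209034 and chr17:56211133-56211365. The former held 185.9, 191.9 and 150.9 tags in normoxia and 80.4, 150.7 and 77.1 after 6 h, and the latter 275.4, 314 and 308.9 and then 154.7, 249.5 and 134.2. At the former, the highest hypoxia library came within a tag of the lowest normoxia library. The log2 changes were -0.85 ± 0.16 and -0.79 ± 0.16 (SE, limma adjusted p = 0.0169 and 0.024).

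The other falls were in Gprc5c, an orphan receptor gene, and Tpst2, whose enzyme adds sulfate to tyrosines of secreted proteins. Gprc5c held 154.8, 135.5 and 152.5 tags in normoxia and 66.4, 116.1 and 60.9 after 6 h (log2 change -0.93 ± 0.16, SE, limma adjusted p = 0.0117). Tpst2 held 185.9, 187.1 and 127.7 and then 84.8, 128.2 and 63.8 (-0.90 ± 0.17, limma adjusted p = 0.0161). Tpst2 was the single called site whose groups met before centring, where hypoxia replicate 2 lay just above normoxia replicate 3.

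The largest rise was at Gadd45b, a gene of the stress response that glucocorticoids induce, 2354 bp outside the gene at chr10:80934453-80934664. It held 57.7, 64 and 61.2 tags in normoxia and 151.2, 299.7 and 107.5 after 6 h. The normoxia libraries were tightly grouped and all hypoxia libraries lay above them, replicate 2 by far the highest. The log2 change was 1.47 ± 0.19 (SE, n = 3 per group, limma adjusted p = 0.00216), a 2.78-fold rise. Sites in the neighbouring gene Gng7, a G protein subunit gene, stood 27.8, 57.0 and 60.3 kb away. Their log2 changes were 0.12 ± 0.19, 0.69 ± 0.17 and 0.72 ± 0.22, and none of these 3 passed the test.

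Parva encodes alpha-parvin, which ties integrins to actin. The site in this gene (chr7:112469989-112470194) held 108.5, 68.7 and 86.7 tags in normoxia and 222.9, 344.7 and 159.9 after 6 h. All 3 hypoxia libraries lay above normoxia (log2 change 1.41 ± 0.19, SE, limma adjusted p = 0.00216). A site 2396 bp from Tubd1, the gene of delta-tubulin, held 91, 88.8 and 99.9 and then 176.6, 237.3 and 144.6 tags, again without overlap (0.97 ± 0.16, limma adjusted p = 0.00949).

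The other rises were at Bdh1, Gne and Rragc. Bdh1 encodes the enzyme that interconverts the ketone bodies acetoacetate and beta-hydroxybutyrate. A site 2690 bp from it held 199.5, 253.9 and 243.8 tags in normoxia and 382.8, 530.1 and 378.7 after 6 h, so every hypoxia library was higher (log2 change 0.88 ± 0.18, SE, limma adjusted p = 0.024). Gne, the gene of the enzyme that starts sialic acid synthesis, went from 72.1, 70.6 and 61.2 tags to 113.6, 154.2 and 94.2 (0.80 ± 0.15, limma adjusted p = 0.0161). A site 40.8 kb from Rragc, whose GTPase relays amino acid supply to mTORC1, went from 45.5, 55.4 and 41 to 86.5, 126.5 and 69.5 (0.96 ± 0.16, limma adjusted p = 0.00949). The normoxia values at Rragc lay just above the caller's approximate minimum in those libraries.

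**Figure D3:**
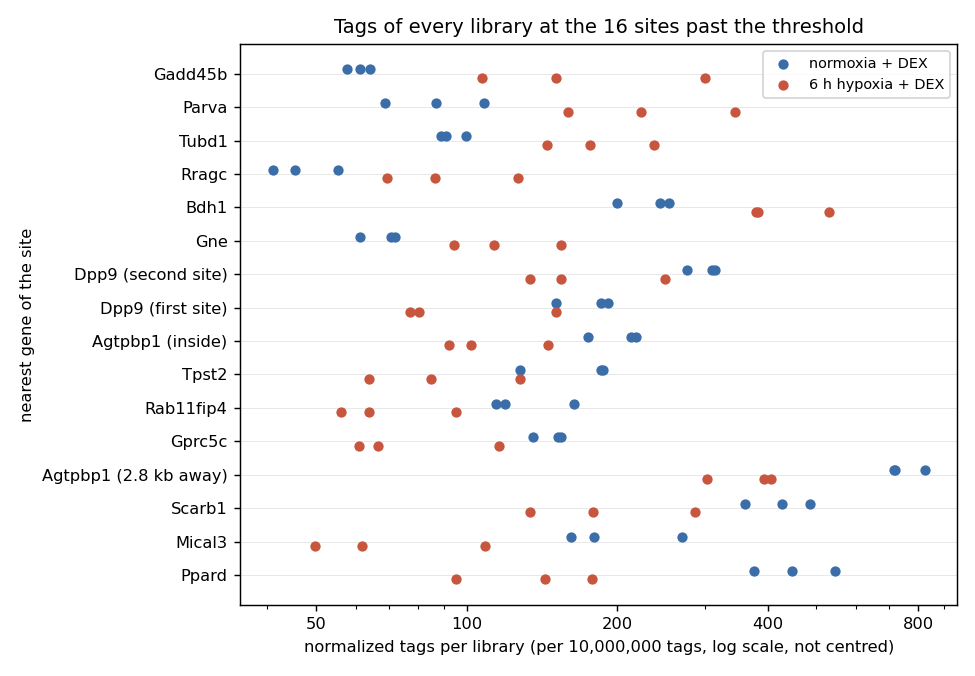
Normalized tags of each library (log axis, before centring) at the 16 sites that passed the limma test, named by their nearest gene, with normoxia in blue and 6 h of hypoxia in red. The groups are apart at 15 of the 16 sites, and at Tpst2 the lowest normoxia library (127.7) lies just below the highest hypoxia library (128.2).

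The calls differed in how much they rested on single libraries. Ppard, Gadd45b and Parva passed in all 18 alternative settings and Mical3 in all 17 in which it could be tested. Without normoxia replicate 2 only 5 of the 16 still passed, without hypoxia replicate 1 5, without replicate 2 11 and without replicate 3 9. Bdh1 was also lost without normoxia replicate 1. None of the 16 changed direction in any of these fits.

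Further sites had groups apart after centring but did not pass. Usf2, a gene of an E-box binding transcription factor, came nearest among rises, with 118.3, 126.9 and 65.8 tags in normoxia and 159.9, 265 and 152.2 after 6 h (log2 change 0.90 ± 0.21, limma adjusted p = 0.0534). The interleukin-15 receptor gene Il15ra (0.89 ± 0.24), Mtarc2 (0.81 ± 0.22), Dysf, a membrane repair gene (0.77 ± 0.19), and the phosphatase inhibitor gene Ppp1r14b (0.72 ± 0.19) had limma adjusted p values of 0.113, 0.0998, 0.0767 and 0.0979. In the other direction stood Stk4, the gene of a Hippo pathway kinase (-0.78 ± 0.23, limma adjusted p = 0.144), and a site near C87436 (-0.77 ± 0.20, 0.0979). At Stk4 the groups were apart, but normoxia replicate 3 was far above its group, with 298 tags against 170.7 and 186.1.

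Called sites were also set against their neighbours along the chromosome. Of the 16, 11 had at least 1 other site called in all 6 lists within 100 kb, which makes 18 pairs, the Agtpbp1 and Dpp9 pairs being counted from both sides and the other neighbours of Dpp9 once for each of its sites. The neighbour was itself called, in the same direction, only within those pairs, and 14 of the 18 pairs had the same sign. The pairs hold 12 different neighbours that were not called, of which 9 had a log2 change below 0.5 in size. Around Dpp9 a site near Arrdc5, 84.2 kb from the former site, moved the other way (0.63 ± 0.17, limma adjusted p = 0.113), and a site near Lrg1 stood at 0.02 ± 0.17. The difference between a called site and its neighbour was not tested.

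**Figure D4:**
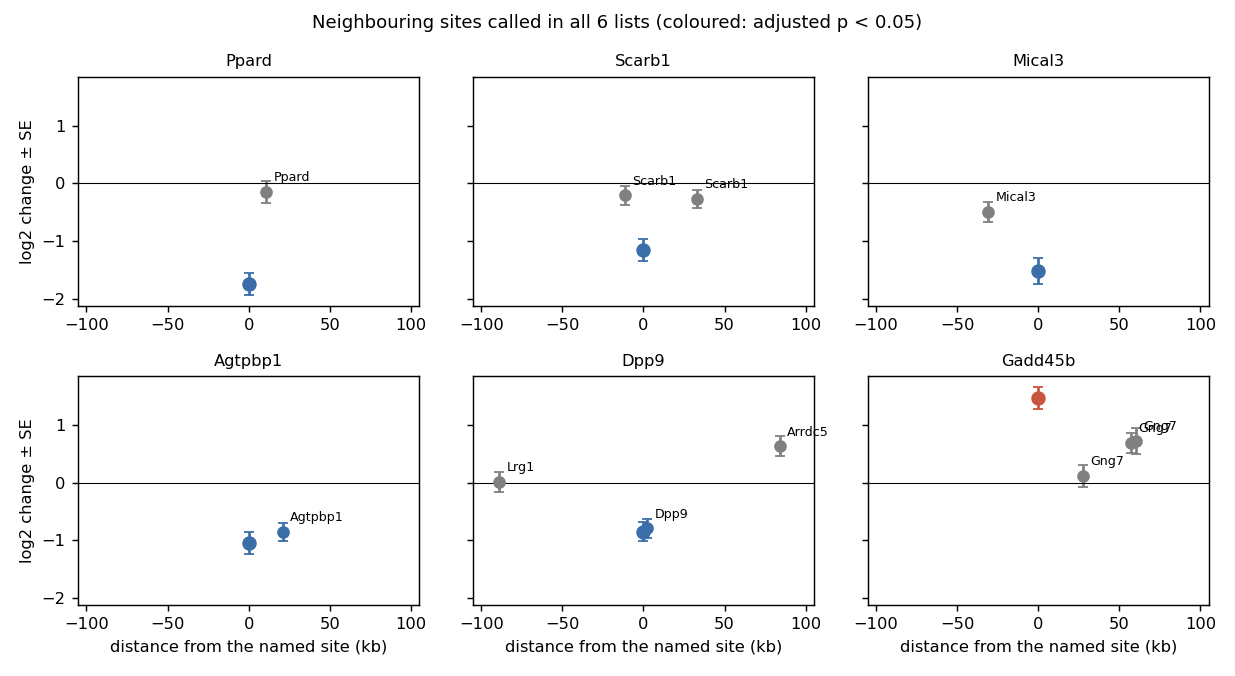
Log2 change ± SE (n = 3 per group) of 6 called sites, at 0 kb, and of the other sites called in all 6 lists within 100 kb, named by their nearest gene. Coloured points passed the limma test. The neighbours at Ppard (-0.15) and Scarb1 (-0.21 and -0.27) lie near 0, while the pairs at Agtpbp1 and Dpp9 fell together.

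Lists of genes that fit the tissue and the treatments are given beside these sites. They were chosen with earlier results of these data known, so a called member of a list is not independent support for it. For each list the sites in all 6 lists whose nearest gene belongs to it were counted, beside 6 higher and 10 lower of all 1116 sites and a median log2 change of 0.02. Near classical glucocorticoid-induced genes 52 sites were measured, of which 1, at Gadd45b, rose and 0 fell, with a median of 0.05. Zbtb16, a zinc finger gene, held 1023.4, 937.3 and 889.4 tags in normoxia and 959.7, 1271.5 and 768.8 after 6 h, and Gadd45g, a relative of Gadd45b, 641.8, 736.9 and 808.2 and then 722.8, 1065.4 and 611.8. At both the groups overlapped.

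Near genes that make glucose or break down amino acids, 0 of 19 sites passed in either direction and the median was 0.06. A site 251 kb from Foxo1, whose factor drives glucose output, held 651 ± 86.8 tags in normoxia and 696 ± 166 in hypoxia (SD, n = 3 each). Cps1, the first enzyme of the urea cycle, stood at 243 ± 45.6 and 230.4 ± 67.9, the transaminase gene Got1 at 233 ± 51.3 and 240.1 ± 114, and Hpd, of tyrosine breakdown, at 229 ± 14.4 and 277 ± 69.8. At Hpd the groups were apart after centring without passing the test (limma adjusted p = 0.619).

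Of 7 sites near genes of fatty acid oxidation and ketogenesis 1 rose (Bdh1) and 1 fell (Ppard), with a median of -0.03. The rest included Ppara, the gene of the nuclear receptor of fasting (266 ± 22.2 and 289 ± 53.2 tags), and Cpt1a, which admits fatty acids to mitochondria (158 ± 29.3 and 159 ± 39.7). Of 8 sites near genes of cholesterol, lipoprotein and bile acid metabolism 1 fell (Scarb1) and 0 rose. This list had a median of -0.25, and 4 of its 8 sites had all hypoxia values below all normoxia values after centring, against 7.97% of all sites. The 8 sites belong to only 6 genes. They include the Scarb1 sites 11.3 kb and 32.8 kb from the called site, so they are not independent, and a shift of the list was not tested.

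Also in this list, Srebf2, the regulator of cholesterol synthesis, held 213.9, 212.9 and 140.9 tags in normoxia and 107.5, 187.1 and 81.8 after 6 h. Hypoxia replicate 2 lay inside the normoxia range before centring, and the change did not pass (-0.66 ± 0.18, limma adjusted p = 0.115). Nr0b2, the gene of SHP, which represses bile acid synthesis, had 154 ± 11.5 and 133 ± 40.4 tags and Insig2, which retains the sterol sensor in the endoplasmic reticulum, 143 ± 23.5 and 145 ± 44.8. At Insig2 the levels were close, with a log2 change of -0.01 ± 0.16.

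Near HIF targets and genes of oxygen sensing, 0 of 9 sites passed, and 0 had groups apart. Log2 changes ran from -0.18 to 0.23 with a median of 0.03. Hif3a, the gene of an inhibitory HIF subunit, held 506, 546 and 738.5 tags in normoxia and 708, 729.3 and 648.9 after 6 h. Bnip3, a mitophagy gene, held 327, 214.8 and 216 and then 304.2, 327.4 and 154.1. At both sites the hypoxia values overlapped those of normoxia. Epas1, which encodes HIF-2 alpha, and Pfkfb3, a regulator of glycolysis, stood at 0.23 ± 0.17 and 0.03 ± 0.21 on the log2 scale.

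Of 6 sites near circadian clock genes 0 passed, with a median of 0.18. Tef, a clock output factor, held 122.9, 140.3 and 204.4 tags in normoxia and 220.3, 278.9 and 189.4 after 6 h, and did not pass (log2 change 0.57 ± 0.22, limma adjusted p = 0.255). Ciart, a clock repressor, stood at 0.47 ± 0.23, and Per1, a core clock gene that glucocorticoids induce, at 0.10 ± 0.22 (limma adjusted p = 0.426 and 0.917). Of 6 sites near Hippo pathway genes 0 passed. They ran from Stk4 at -0.78 to Tead1, the pathway's transcription factor, at 0.67 ± 0.17 (limma adjusted p = 0.0951). Amotl2, an upstream member, stood at 0.01 ± 0.18 and Vgll4, a TEAD cofactor, at 0.28 ± 0.23, so the list had no common direction.

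Of 13 sites near acute phase and inflammation genes 0 passed, with a median of -0.00. Nfkbia, the gene of an NF-kappaB inhibitor, held 496.9, 466.7 and 548.1 tags in normoxia and 478.1, 462.5 and 404.4 after 6 h. Lcn2, which binds bacterial siderophores, stood at 0.01 ± 0.17, Il6ra, a receptor for interleukin-6, at 0.21 ± 0.18, and Lbp, which binds endotoxin, at -0.26 ± 0.16. At Lbp the hypoxia values lay below normoxia after centring, without passing (limma adjusted p = 0.574).

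Of 9 sites near liver transcription factor and nuclear receptor genes 0 passed, with a median of 0.02. Rxra, the shared partner of many nuclear receptors, PPAR delta included, stood at -0.25 ± 0.17 and Nr1i2, the xenobiotic receptor gene, at 0.02 ± 0.16. Near hepatocyte markers the count was 0 of 9 with a median of 0.00, among them Alb (-0.04 ± 0.22) and Tat (0.00 ± 0.21). Near endothelial markers the 2 sites, at Vwf and Flt1, stood at -0.13 ± 0.24 and -0.02 ± 0.21. These marker sites do not measure the tissue's cell makeup, since binding and not expression was recorded.

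**Figure D5:**
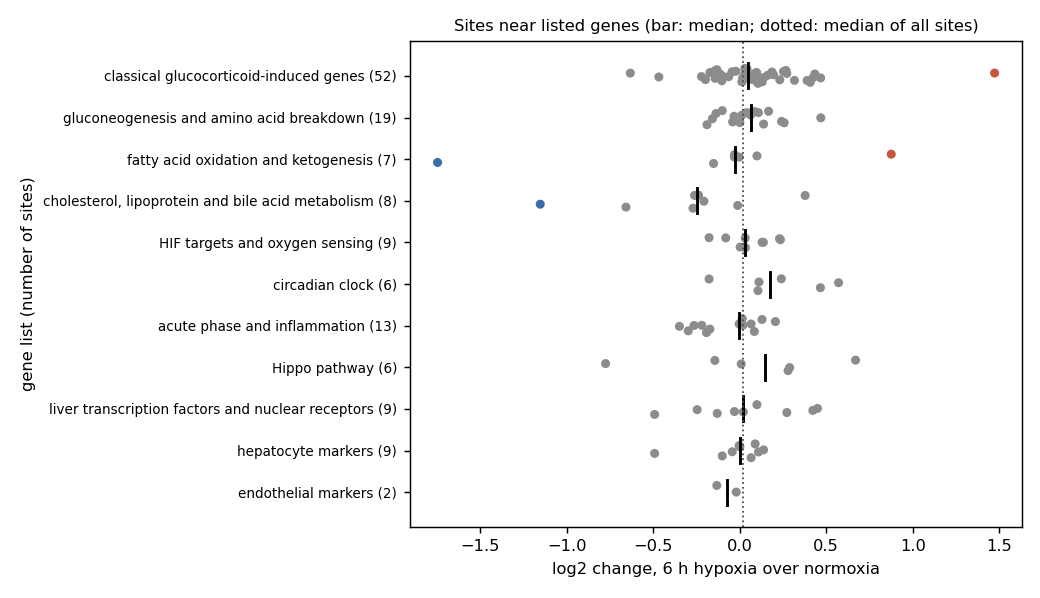
Log2 change after 6 h of hypoxia of every site in all 6 lists whose nearest gene belongs to a gene list, with the number of sites in brackets. Bars are list medians, the dotted line is the median of all 1116 sites (0.02), and coloured points passed the limma test over all sites. The coloured points are Gadd45b, Bdh1, Ppard and Scarb1.

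Detection gave a more lopsided picture than tag counts. A peak was called in all 3 normoxia and 0 of 3 hypoxia libraries at 217 sites (5.33% of 4075), and in 0 of 3 normoxia and all 3 hypoxia libraries at 3 sites (0.0736%). No single site can pass a test of detection with 3 against 3 libraries, where Fisher's exact test cannot go below 0.1. Most of the 217 were weak sites. Their mean tags in normoxia had a median of 60.2 (range 47.6 to 172.9), and 209 (96.3%) lay below 86.6, the approximate minimum of hypoxia replicate 2. The approximate minimum of the other hypoxia libraries was 43.7 and 47.6 tags, and by the definition of these sites they had no peak there either. Without hypoxia replicate 2 the count was 251 instead of 217. Leaving out a library can only keep or raise this count, so it does not show what that library contributes. Of the 217, 61.8% lay inside a gene, against 52.3% of the sites in all 6 lists.

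In 3 of the 217 sites all normoxia values reached 86.6. Dynlrb1, a dynein light chain gene, held 134.3, 210.9 and 173.4 tags in normoxia (chr2:155243239-155243455). Acsl1, whose enzyme activates long-chain fatty acids, held 122.9, 151.8 and 92.9 (chr8:46482079-46482280), and Scara5, a ferritin receptor gene, 94.1, 111.7 and 88.2. The lowest values at Acsl1 and Scara5 were not far above that level. The other 7 of the 10 with the highest means were in Ttc39c and Fam71e1, both with means above that of Scara5, near the translation regulator gene Cpeb4 (28.8 kb), in the kinase gene Map4k3, at the Ppard site above, in the RNA-binding protein gene Rbpms and 3459 bp from Mknk2, a kinase of the translation factor eIF4E.

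When every list was held to 86.6 normalized tags the counts became 13 and 7, and with lists of equal length 32 and 23. Of the 13 sites then called only in normoxia, 10 had a deposited peak in 1 or 2 hypoxia libraries, at lower tags. Arid1b, a chromatin remodeler subunit gene, held 100.9, 107.9 and 108.4 tags in normoxia and 75.2 and 60.9 in hypoxia replicates 1 and 3, and Lifr, a cytokine receptor gene, held 97.9, 95.4 and 91.3 and then 78.7 and 79.9. In the 7 of the other direction all normoxia libraries held a weaker peak. They included Gadd45b and Gne again, a site 56.7 kb from the Notch target gene Hes1 (81.2, 68.7 and 78.2 tags, then 104.9, 159.4 and 98), a site in Nipsnap2 (78.9, 74.4 and 75.1, then 114.5, 169.8 and 91.3) and a site 272 bp from Gchfr, a regulator of tetrahydrobiopterin synthesis (72.8, 64 and 80.5, then 99.6, 124.7 and 89.4). Values were thus graded across the threshold in both directions, Dynlrb1, Acsl1 and Scara5 being the 3 of the 20 sites with no peak at all in the other group.

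The 3 sites called in hypoxia alone in the deposited lists were in Gng7 (60.3, 150.7 and 54.2 tags), in the RNA exonuclease gene Rexo5 (62.9, 124.7 and 53.3) and in Nnmt, whose enzyme methylates nicotinamide (46.3, 135.1 and 59). At each, hypoxia replicate 2 was the highest, as it was in the median over all sites.

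By gene list, the 217 sites (5.33% of all 4075) included 5 of the 37 sites near cholesterol, lipoprotein and bile acid genes (13.5%). Among them were Nr0b2 (77.4, 88.8 and 60.4 tags), Abca1, a cholesterol exporter gene (45.5, 85.9 and 55.7), the Scarb1 site above and Cyp27a1, of bile acid synthesis (56.1, 49.6 and 48). At these 4 sites all values but the 88.8 at Nr0b2 lay below 86.6. Near classical glucocorticoid-induced genes they were 5 of 107 (4.67%), close to the share of all sites, among them Cebpb (74.3, 84.9 and 73.5), Klf15 (56.1, 73.5 and 49.5) and Tsc22d3, the GILZ gene (50.8, 68.7 and 48). The fatty acid list had 2 of 29, at Acsl1 and Ppard, and the HIF list 0 of 22. The Hippo list had 2 of 13 (15.4%), a higher share than the cholesterol list. These shares rest on few sites and were not tested.

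The 24 h hypoxia libraries with DEX, which were not part of these fits and share the normoxia libraries as their reference, are given beside the 6 h values. Of the 16 called sites 12 had a peak in all 3 of them, as did 933 of all 1116 sites, so this is not particular to the called sites. Ppard held 455.8 ± 85.96 tags in normoxia, 139 ± 41.8 at 6 h and 173 ± 72.7 at 24 h (SD, n = 3 each), and Scarb1 424 ± 63.2, 199 ± 78.1 and 128 ± 52.1. At both genes the hypoxia means lay below the normoxia mean. Among the rises, Gadd45b stood at 61.0, 186 and 149.7 tags and Parva at 88.0, 242.5 and 209.7. Tubd1 stood at 93.2, 186 and 111, Bdh1 at 232, 431 and 276, and Gne at 68.0, 121 and 76.1, so their 24 h means were nearer to normoxia than to 6 h. A difference between 6 h and 24 h was not tested. Of the 217 sites, 102 had a peak in 0 of 3 of the 24 h lists, 112 in 1 or 2 and 3 in all 3.

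Livers injected with PBS in place of DEX show whether a called site was also occupied without it. Of the 6 sites that rose, 5 had a peak in at least 1 of the 3 lists from 6 h of hypoxia with PBS and in 0 of 3 from normoxia with PBS, as did 31.8% of all 1116 sites. Parva was listed in all 3, with 46, 259.1 and 37.8 tags, and Bdh1 in 2. Gadd45b, Tubd1 and Gne were listed only in replicate 2, without which the count falls from 5 to 2. Of the 10 that fell, 8 had a peak in 0 of the 6 PBS lists, against 29.3% of all sites, Ppard, Scarb1, Mical3 and both Agtpbp1 sites among them. These lists differed in length, with 230, 751 and 622 peaks after 6 h and 3915, 145 and 343 in normoxia, where replicate 1 held 43645787 tags and stood apart, and what part this has in the counts was not tested. At the named sites of all kinds the input control held a mean of 0.433 to 3.73 tags, scaled to each receptor library with a peak there. Every listed peak had to pass the filter against input, so these low values are not separate support.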

How the data were processed

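Receptor ChIP-seq peak lists of 6 mouse liver libraries, 3 from 6 h of hypoxia with DEX and 3 from normoxia with DEX, were compared, with samples put into groups by their titles. The submitters' processing notes name Trimmomatic, BWA 0.7.17, SAMtools 1.10 and HOMER, and the build mm10. For HOMER no version is given in the sources used here. Each library's peaks were called against the input of its own oxygen condition, with at least 4-fold enrichment over that input and over the local 10000 bp and a Poisson p of 0.0001 for both, per the file headers.

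The signal used is the normalized tag count of a peak per 10000000 tags, as the authors deposited it. The deposited total tags, a count per peak, include repeated positions, whereas the authors' peak caller score, 50 or more in every list, takes 1 tag per base. Fold over input, a ratio the authors deposited, served only as an alternative filter of 8-fold.

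Peaks overlapping by 1 bp were merged, and a site took its highest peak in each library. A site was named by the nearest of 21900 protein-coding genes of the RefSeq table of GRCm38.p6. At the 1116 sites in all 6 lists, log2 normalized tags (pseudocount 0), centred per library, were fitted with limma 3.58.1 in R 4.3.3. The fit was also run on simulated counts with a single dispersion and no library shifts beyond depth. That run does not show how the fit handles the spread between the libraries used here. The limma test was chosen before the columns were known to hold whole tags, so edgeR 4.0.16 and DESeq2 1.42.0 on those counts are alternatives, edgeR with TMM factors being added after seeing the data. Other alternatives were the replicate number as a block, no centring, a pseudocount of 10, a mean of at least 100 tags, other merging rules, a trend in the prior variance, a fit with the 24 h libraries, the share of tags in peaks as a covariate, and leaving out each library.

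Named sites were up to 12 per direction with the largest changes past the threshold, filled with sites whose groups were apart, the 10 strongest found in 1 group alone, the 8 with most tags, and up to 4 genes per list. The sites at a common threshold, the promoters printed and the neighbours were named after their values were seen. The members and lists were chosen with earlier results of these data known.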

Additional observations from a re-analysis of the deposited data

How the results depend on the processing

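The 6 higher and 10 lower sites became 26 and 22 with the replicate number as a block. Deviations of same-numbered libraries correlated by 0.0122, 0.222 and 0.476. Normoxia replicates 2 and 3 correlated best with the hypoxia library of the same number, and normoxia replicate 1 with hypoxia replicate 2 (0.33). Whether same-numbered libraries were processed together cannot be told from these values. Without centring the counts were 2 and 2, with edgeR on the libraries' total tags 2 and 4, with DESeq2 10 and 13, and in the 3-group fit 16 and 8. Leaving out single libraries gave 2 to 25 higher and 2 to 14 lower, the most without normoxia replicate 3 (25 and 14) and the fewest without normoxia replicate 2 (3 and 2) and hypoxia replicate 1 (2 and 3). Other settings gave 5 to 9 and 10 to 14. Over the 18 settings the 16 called sites have 282 values, of which 224 kept the call, 58 lost it and 0 reversed, and of 142 values for named sites that did not pass 26 passed.

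The difference in the share of tags in peaks turned from -0.555 to 0.0441 points at the common threshold, and ran from -0.844 to -0.232 without single libraries. The log2 difference in median tags, 0.00369, ran from -0.224 (without hypoxia replicate 2) to 0.178, and was -0.0532 without normoxia replicate 3. That in peaks ran from -0.878 to -0.489. Sites in normoxia alone numbered 217, 13 at the common threshold, 32 at equal list length and 235 to 409 without single libraries. Sites in hypoxia alone numbered 3, then 7, 23 and 4 to 20. The normoxia count was 251 without hypoxia replicate 2 and highest, 409, without hypoxia replicate 1. Leaving out a library removes a condition, so both counts could only stay or rise. What part the unscaled minimum of 50 tags has in these counts was not tested.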
